A study of Mus musculus with 8 samples.

Results

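The genes described here are those of the prolactin receptor route in pancreatic islets: the receptor Prlr, the transcription factors Stat5a and Stat5b, the feedback inhibitors Cish and Socs2, the serotonin-synthesis genes Tph1, Tph2 and Ddc, and the milk protein gene Csn3. They were taken by symbol, and 8 of the 9 are in the deposited table of 14126 genes; Tph1 is not analysed here. The 9 symbols were chosen by their values in the KO and WT libraries, so the difference between these groups is given for them as a description, with no test. All 8 measured genes passed the filter on low values.

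Islets, the hormone-secreting cell clusters of the pancreas, were profiled by bulk RNA sequencing in NOD/ShiLtJ mice aged 7 weeks, a strain prone to autoimmune diabetes. The 4 KO libraries came from IRE1αβ-/- mice and the 4 WT libraries from IRE1αfl/fl mice, with 4 animals per group per the design text. Ern1 encodes IRE1α, a sensor of stress in the endoplasmic reticulum. Tamoxifen, injected intraperitoneally to switch on Cre recombinase, is recorded for both groups. The labels name neither the promoter that drives Cre nor whether the WT mice carry it. A response to tamoxifen or Cre that both groups share would not show. If the WT mice lack Cre, an effect of Cre itself cannot be told apart from the loss of IRE1α.

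Prolactin and placental lactogen bind the prolactin receptor, which carries the kinase JAK2. JAK2 phosphorylates STAT5A and STAT5B, and these move to the nucleus and switch on targets that include CISH and SOCS2, a pair of proteins that damp the same receptor. In the islets of pregnant rodents this route drives beta cell expansion and serotonin synthesis, in which a tryptophan hydroxylase (TPH1 or TPH2) makes 5-hydroxytryptophan and DDC turns it into serotonin. In the mammary gland the same route switches on the caseins, of which Csn3 encodes kappa-casein.

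STAT5 binds the letters TTCNNNGAA, which read the same on both strands. RefSeq promoter windows (build GRCm38.p6, 250 bases before to 50 after each start) were held for 7 of the 9 genes, 13 windows in all, and 2 of these contain the letters. They are printed because they are the only windows of these genes with the motif, which stands in capitals. The Cish window, chr9:107296409-107296708 on the plus strand, holds 2 matches, the first of which begins at the RefSeq start itself. The Prlr window, chr15:10223656-10223955 on the plus strand, belongs to 1 of its 3 RefSeq starts and holds 1 match, 110 bases before that start.
Cish: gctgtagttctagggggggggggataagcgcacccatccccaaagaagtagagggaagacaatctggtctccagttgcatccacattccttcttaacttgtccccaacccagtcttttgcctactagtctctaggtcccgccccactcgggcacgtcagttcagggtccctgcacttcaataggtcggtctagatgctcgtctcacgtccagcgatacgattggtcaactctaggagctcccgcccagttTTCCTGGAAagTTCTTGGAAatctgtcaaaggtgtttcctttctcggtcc
Prlr: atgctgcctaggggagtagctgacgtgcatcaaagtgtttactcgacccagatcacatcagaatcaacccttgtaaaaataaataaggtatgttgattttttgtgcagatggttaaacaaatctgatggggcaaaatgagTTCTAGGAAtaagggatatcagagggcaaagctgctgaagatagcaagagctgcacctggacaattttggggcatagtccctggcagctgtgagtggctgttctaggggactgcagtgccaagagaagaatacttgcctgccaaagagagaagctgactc
Of all 32851 promoter windows of this length, 8.30% hold the letters at least once and 0.457% more than once. A match describes the sequence and does not show that STAT5 binds there.

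The values are normalized counts rounded to whole numbers by the authors, called values below; differences are on log2(value + 1), and ± after a difference is limma's standard error. Totals per library were between 32024139 and 34858983 after normalization, and sequencing depth is unknown. Ern1 was higher in KO, at 7223, 7390, 6922 and 7216 in KO libraries 1 to 4, against 5549, 5164, 4622 and 4500 in WT libraries 1 to 4 (0.54 ± 0.08, adjusted p = 0.00234 by limma-trend). A whole-gene total does not show whether the floxed part is present, so it does not check the labels. Of the fixed beta cell markers 7 of 10 fell in KO, with sums of 2547830 to 3495490 in KO and 5369690 to 6009870 in WT. Alpha cell markers rose for 7 of 8 (sums of 1918410 to 2620210 in KO, against 401157 to 1043360 in WT). Markers of delta, PP and epsilon cells rose for 6 of 7 (sums of 277570 to 391767 in KO, against 104013 to 170705 in WT). In bulk islets, fewer cells of a type and less RNA per cell cannot be told apart. No beta, alpha, acinar or ductal marker measured was at 0 in any library.

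Libraries 3 and 4 of both groups also stood apart from libraries 1 and 2. The labels record no batch that would name the split, which was seen in the values themselves. Differences between KO and WT are therefore given within each set as well.

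Of the 8 measured genes, 7 had a lower mean in KO and 1, Csn3, a higher one; over all genes 50.1% had a lower mean. For 4 genes, Prlr, Stat5a, Stat5b and Ddc, every KO library lay below every WT library, which holds for 12.3% of all genes. For Csn3 every KO library lay above every WT library, which holds for 13.6% of all genes. Nothing is read from these counts, since the genes were chosen with this contrast known. Over all genes tested, 1562 rose in KO and 1385 fell (11.1% and 9.81%, or 20.9% in all), so 53.0% of calls were higher; after rescaling to totals without hormone and mitochondrial genes 1745 rose and 1017 fell, so 63.2% were higher. The count that fell was 909 without KO library 4 and 863 without WT library 2.

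The receptor gene Prlr (chromosome 15, 10177238 to 10349180, plus strand) had values of 16077, 17868, 14726 and 15387 in KO libraries 1 to 4, against 34389, 32161, 20521 and 27875 in WT libraries 1 to 4. The groups did not overlap, and the lowest WT library, replicate 3, was nearest to the KO range. The mean was 16014.5 ± 1353 in KO and 28736.5 ± 6108 in WT (SD, n = 4 each), so KO stood at 55.7% of WT (-0.82 ± 0.16). The difference was -0.67 ± 0.15 within libraries 3 and 4 and -0.97 ± 0.11 within libraries 1 and 2. The WT libraries spread more widely than the KO libraries, with a coefficient of variation of 21.3% in WT and 8.45% in KO.

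Stat5a and Stat5b lie next to each other on chromosome 11 (100859351 to 100885169 on the plus strand and 100780731 to 100850724 on the minus strand), with 8626 bases between them, and both transcription factors were lower in KO. Stat5a had 406, 409, 500 and 418 in KO libraries 1 to 4, against 608, 673, 723 and 783 in WT libraries 1 to 4 (-0.68 ± 0.11). Stat5b had 2328, 2402, 2019 and 2063 in KO libraries 1 to 4, against 3084, 3489, 3336 and 3119 in WT libraries 1 to 4 (-0.57 ± 0.08). Neither gene's groups overlapped, and the KO mean was 62.2% of the WT mean for Stat5a and 67.6% for Stat5b. Within libraries 3 and 4 the differences were -0.72 ± 0.13 for Stat5a and -0.66 ± 0.09 for Stat5b, and within libraries 1 and 2 -0.65 ± 0.13 and -0.47 ± 0.10. The coding sequences of the paralogs are 90.8% identical over 2291 aligned bases, with an identical run of up to 324 bases, so reads from shared stretches could be split between them and the level of each is uncertain.

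Cish, the feedback inhibitor whose promoter window is printed above (gene at chromosome 9, 107296026 to 107302784, plus strand), differed between the library sets as well as between the labels. Its values were 165, 136, 748 and 422 in KO libraries 1 to 4, against 246, 200, 1624 and 1350 in WT libraries 1 to 4. KO libraries 3 and 4 lay above WT libraries 1 and 2, so the groups overlapped, although within each set every KO library lay below both WT libraries. The difference over all 8 libraries was -0.98 ± 0.80, with -1.40 ± 0.24 within libraries 3 and 4 and -0.56 ± 0.21 within libraries 1 and 2.

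Socs2, the other feedback inhibitor (chromosome 10, 95385362 to 95417180, minus strand), had 661, 469, 1101 and 646 in KO libraries 1 to 4, against 795, 807, 1437 and 1478 in WT libraries 1 to 4. The groups overlapped through KO library 3, and within each set both KO libraries lay below both WT libraries. The mean was 719.3 ± 269 in KO and 1129 ± 379 in WT (SD, n = 4 each), a difference of -0.66 ± 0.30. It was -0.79 ± 0.22 within libraries 3 and 4 and -0.52 ± 0.17 within libraries 1 and 2.

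**Figure D1:**
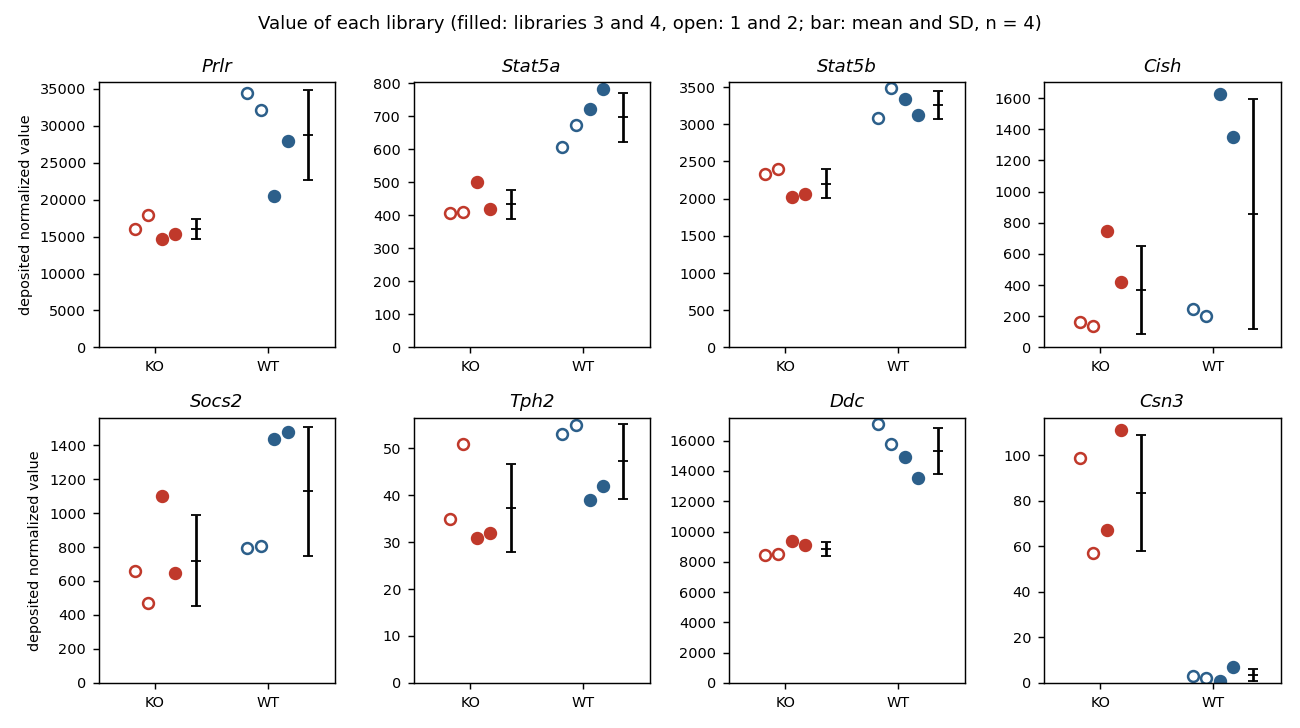
Deposited normalized value (y axes, each from 0) of the 8 measured genes in every library, KO left and WT right, with filled points for libraries 3 and 4, open points for libraries 1 and 2, and bars for the mean and SD of 4 libraries. Prlr, Stat5a, Stat5b and Ddc sit lower in all KO libraries and Csn3 higher, while Cish, Socs2 and Tph2 overlap between the groups.

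Of the serotonin-synthesis genes, Ddc was lower in KO without overlap and Tph2 was near the low end of the table in both groups. Ddc (chromosome 11, 11814101 to 11898144, minus strand), which decarboxylates both 5-hydroxytryptophan and L-DOPA, had 8433, 8498, 9404 and 9123 in KO libraries 1 to 4, against 17084, 15758, 14927 and 13526 in WT libraries 1 to 4. The KO mean was 57.8% of the WT mean (-0.79 ± 0.09), with -0.62 ± 0.10 within libraries 3 and 4 and -0.95 ± 0.09 within libraries 1 and 2. Tph2 (chromosome 10, 115078641 to 115185022, minus strand) had 35, 51, 31 and 32 in KO libraries 1 to 4, against 53, 55, 39 and 42 in WT libraries 1 to 4. The groups overlapped through KO library 2, and the difference of -0.35 ± 0.26 over all 8 libraries was within their spread. Within each set both KO libraries lay below both WT libraries. The difference was -0.35 ± 0.32 within libraries 3 and 4 and -0.35 ± 0.34 within libraries 1 and 2. The coding sequences of Tph1 and Tph2 are 68.1% identical, and their longest identical run is 15 bases.

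Csn3, kappa-casein (chromosome 5, 87925579 to 87932665, plus strand), ran the other way and had the largest difference of the 8 genes on the log2 scale. Its values were 99, 57, 67 and 111 in KO libraries 1 to 4, against 3, 2, 1 and 7 in WT libraries 1 to 4. The lowest KO library lay well above the highest WT library, and the ratio of the means, 83.5 ± 25.6 in KO over 3.25 ± 2.63 in WT (SD, n = 4 each), was 25.7. On log2(value + 1) the difference was 4.45 ± 0.52, and it was 4.45 within libraries 3 and 4 and 4.46 within libraries 1 and 2. Since the WT values are so low, its size depends on the pseudocount and was 3.43 with a pseudocount of 5; the authors' deposited table gives a log2 fold change of 4.70.

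**Figure D2:**
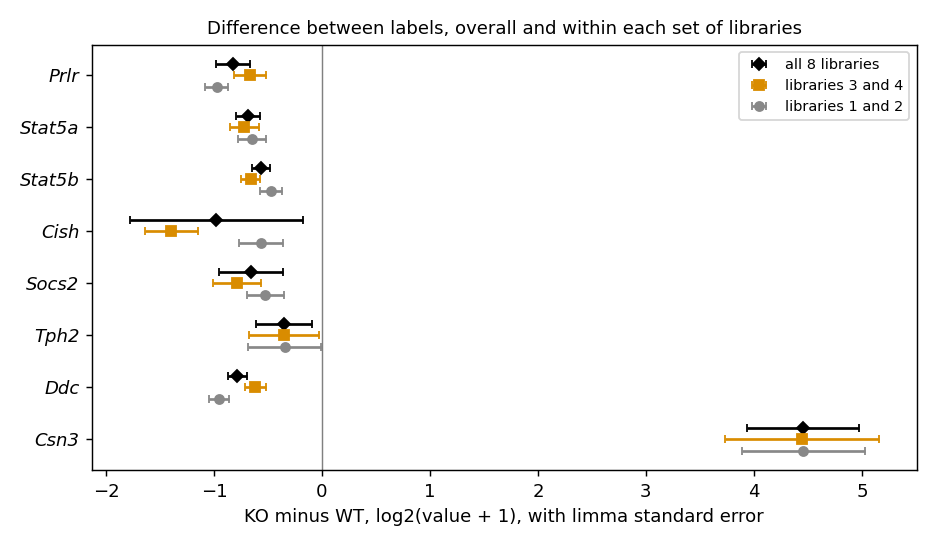
Difference KO minus WT on log2(value + 1) (x axis) with limma's standard error for each gene, over all 8 libraries, within libraries 3 and 4 and within libraries 1 and 2. All 3 estimates lie below 0 for the 7 genes from Prlr to Ddc and near 4.45 for Csn3, and the error over all 8 libraries is widest for Cish.

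Set per kilobase of summed exon length, Ddc was the most abundant of the genes, at 1987 ± 107 in KO and 3435 ± 334 in WT, followed by Prlr at 1044 ± 88.2 in KO and 1873 ± 398 in WT (SD, n = 4 each). Stat5b came next at 398 ± 34.4 in KO and 588 ± 34.4 in WT. Socs2, Stat5a and Cish followed at 75.5 ± 28.2, 60.7 ± 6.28 and 57.3 ± 44.3 in KO and at 118 ± 39.8, 97.7 ± 10.4 and 133 ± 115 in WT, and their order is not settled in either group because the differences are within these spreads. Csn3 and Tph2 were lowest, with 20.1 ± 6.17 and 12.9 ± 3.24 in KO, which lie close together, and with 0.783 ± 0.633 and 16.4 ± 2.76 in WT, which do not. Summed exon length counts every annotated exon, so a gene with a long exon that islets skip is set too low.

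The split into libraries 3 and 4 and libraries 1 and 2 was drawn because these libraries stood apart in the same values, so passing limma-trend on it (adjusted p under 0.05) is used here only to pick genes to describe, and the separation of a gene along it is no independent evidence. The feedback inhibitors Cish and Socs2 were the 2 of 8 genes past that threshold, both higher in libraries 3 and 4, where 9.38% of all genes were past it as higher and 6.06% as lower, or 15.4% in all. Cish averaged 1036 in libraries 3 and 4 and 186.8 in libraries 1 and 2, a difference of 2.32 ± 0.22. Its 4 values in libraries 3 and 4, from 422 to 1624, all lay above its 4 values in libraries 1 and 2, from 136 to 246. Socs2 averaged 1165.5 in libraries 3 and 4 and 683 in libraries 1 and 2 (0.73 ± 0.17). KO library 3 and both WT libraries of that set lay above libraries 1 and 2 of both groups, while KO library 4 fell among them. Without KO library 2 or 3 or WT library 2, 3 or 4, Socs2 was no longer past the threshold.

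The receptor and the transcription factors were less far apart: Prlr differed by -0.32 ± 0.11 between the sets, Stat5a by 0.20 ± 0.09 and Stat5b by -0.12 ± 0.07. Prlr was past the threshold only with totals that leave out hormone and mitochondrial genes. Whether the KO difference differed between the sets was tested by an interaction term, which called 14 genes in the table (0.0991%) and none of the 8; at an unadjusted p under 0.05 it took 2652 genes and 2 of the 8. For Cish the interaction was -0.83 ± 0.35 (adjusted p = 0.250), for Prlr 0.30 ± 0.20 (adjusted p = 0.426) and for Ddc 0.34 ± 0.13 (adjusted p = 0.206).

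Other genes of cytokine signalling were also apart between the sets. Among the listed inhibitors of JAK-STAT signalling, Socs1, Socs3 and Ptpn2 were past the threshold as higher in libraries 3 and 4, Socs5 and Cbl as lower, and 11 of 16 were not past it. Of all genes 9.38% were past it as higher and 6.06% as lower. Socs5 was no longer past it in 6 of 13 alternatives, at an adjusted p of up to 0.0861 by limma-trend. Socs3, the inhibitor best known from interleukin-6 and leptin signalling, had values of 664, 496, 10849 and 7209 in KO libraries 1 to 4, against 483, 302, 14749 and 17162 in WT libraries 1 to 4. The sets were far apart in both groups, by 4.66 ± 0.29 on the log2 scale. Socs1 averaged 59.3 in libraries 3 and 4 and 9.75 in libraries 1 and 2 (2.49 ± 0.39), again higher in both groups.

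Of the listed STAT5 targets, 7 of 19 were past the threshold as higher in libraries 3 and 4 and none as lower: Bcl6, Pim1, Pim3, Myc, Osm, Mcl1 and Cdkn1a. The shares over all genes were 9.38% as higher and 6.06% as lower. The kinase gene Pim1 averaged 1176 in libraries 3 and 4 and 163.3 in libraries 1 and 2 (2.76 ± 0.21). Its relative Pim3 averaged 1594 in libraries 3 and 4 and 407.3 in libraries 1 and 2 (1.95 ± 0.13). The survival gene Mcl1 averaged 8350.5 in libraries 3 and 4 and 3471 in libraries 1 and 2 (1.28 ± 0.08). These genes are a minority of the list, whose median was 0.02, beside -0.02 over all genes.

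Cell type markers differed between the sets as well. The counts below stand beside 9.38% of all genes past the threshold as higher in libraries 3 and 4 and 6.06% as lower. Stellate cell and fibroblast markers were higher in libraries 3 and 4 for 7 of 9, with sums of 10731 to 27054 in libraries 3 and 4 and 9042 to 16687 in libraries 1 and 2. So were 6 of 10 macrophage markers, with sums of 3779 to 4178 in libraries 3 and 4 and 2056 to 3335 in libraries 1 and 2. Endothelial markers were higher for 4 of 7 (12307 to 17325 in libraries 3 and 4, 10718 to 12688 in libraries 1 and 2) and Schwann cell and neuron markers for 5 of 8 (4017 to 5398 in libraries 3 and 4, 3002 to 4183 in libraries 1 and 2). No beta, alpha, delta, acinar or ductal marker was past the threshold. The acinar list still had a median difference of 1.47 between the sets, beside 1.51 for the stellate cell and fibroblast list. Acinar sums were 149715 to 495055 in libraries 3 and 4 and 22897 to 403225 in libraries 1 and 2. The part of any of these cell types in the Cish and Socs2 difference was not tested.

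**Figure D3:**
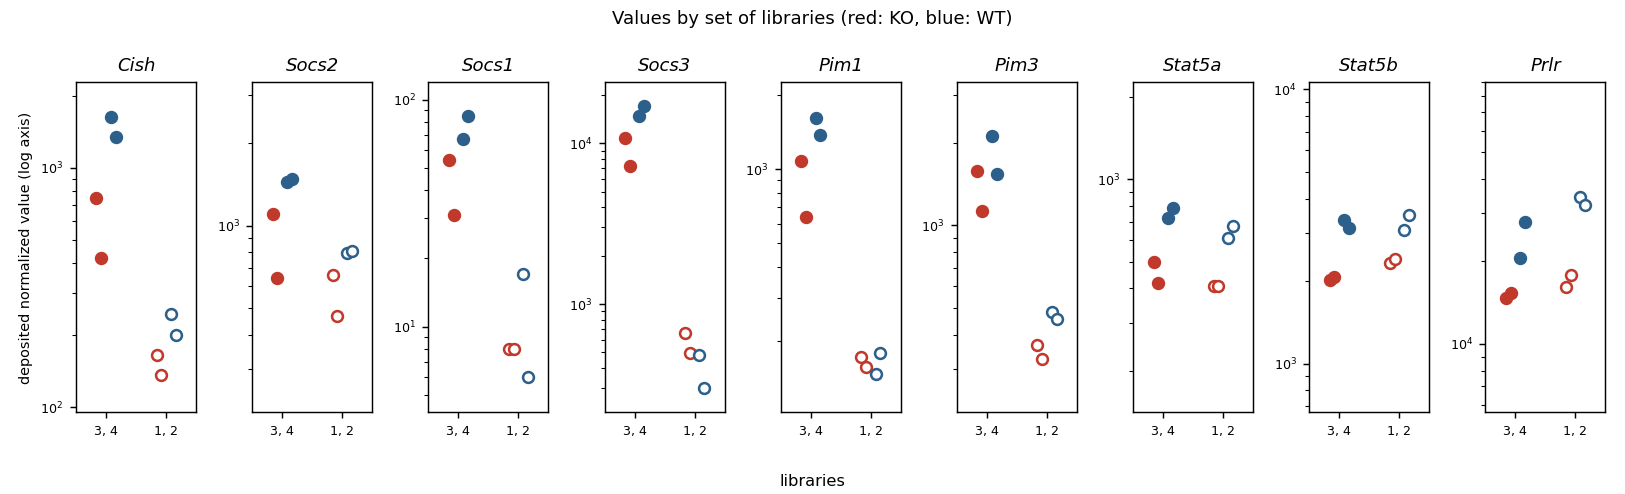
Deposited normalized value (log axes spanning each gene's range) of 9 genes by library set, libraries 3 and 4 (filled) left of libraries 1 and 2 (open), with KO in red and WT in blue. Cish, Socs1, Socs3, Pim1 and Pim3 lie higher in libraries 3 and 4 in both groups, while Stat5a, Stat5b and Prlr split mainly by label.

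The rest of the pathway, which the choice of genes had left out, was listed by role and tested in KO against WT. Of 132 listed entries 97 were measured; 15 rose, 14 fell and 68 did not pass, so 15.5% rose and 14.4% fell, beside 11.1% and 9.81% of all genes. Among the 22 measured receptors, kinases and adaptors, 2 rose and 5 fell (median -0.08). The adaptors that fell were Shc1, which links receptors to RAS, and Irs1, the insulin receptor substrate. Shc1 averaged 4338 ± 219 in KO and 6828 ± 451 in WT (-0.65 ± 0.07, adjusted p = 0.000598). Irs1 averaged 660.3 ± 20.4 in KO and 1074 ± 120 in WT (-0.69 ± 0.10, adjusted p = 0.00153).

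The kinase genes Jak1 and Tyk2 and the phosphatase gene Ptpn11 fell too, by 0.48, 0.34 and 0.43 on the log2 scale (adjusted p = 0.00309, 0.0333 and 0.00905). The Tyk2 call ended with rescaled totals and without KO library 1, 3 or 4 or WT library 2, 3 or 4, at an adjusted p of up to 0.0919. Jak2, the kinase that the prolactin receptor carries, did not pass, with values of 1627, 1489, 2122 and 2136 in KO libraries 1 to 4, against 1598, 1525, 2019 and 1707 in WT libraries 1 to 4 (0.10 ± 0.14, adjusted p = 0.680). Its groups overlapped fully, and the higher values were again in libraries 3 and 4. Ghr, the growth hormone receptor, which also signals through JAK2 and STAT5, averaged 5849 ± 393 in KO and 6764 ± 801 in WT and did not pass (-0.21 ± 0.10, adjusted p = 0.164).

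The docking adaptors Gab1 and Gab2 rose. Gab2 averaged 1064 ± 126 in KO and 707.5 ± 107 in WT (0.59 ± 0.13, adjusted p = 0.0129). Gab1 averaged 600.5 ± 104 in KO and 324 ± 132 in WT (0.96 ± 0.28, adjusted p = 0.03997), a call that ended without KO library 1, 3 or 4 or WT library 1 or 2, at up to 0.0997. Of the 16 inhibitors none rose and 2 fell (median -0.05): the phosphatase gene Ptpn6 (-0.36 ± 0.10, adjusted p = 0.0312) and the ubiquitin ligase gene Btrc (-0.21 ± 0.06, adjusted p = 0.0425). The Ptpn6 call ended with rescaled totals and without any library but KO library 2, at up to 0.0742. The Btrc call ended with rescaled totals, with the replicate block (adjusted p = 0.0568) and without any library but WT library 4, at up to 0.110. It was also not past the threshold in the authors' own values (adjusted p = 0.0615 by their edgeR test).

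Of the 5 other STAT genes, Stat4, which answers to interleukin-12 in lymphocytes, rose and the rest did not pass (median -0.27). Stat4 had 86, 93, 79 and 109 in KO libraries 1 to 4, against 26, 18, 35 and 36 in WT libraries 1 to 4, without overlap (1.68 ± 0.27, adjusted p = 0.00305). With the replicate block 2 of the 5 were called, 1 higher and 1 lower.

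The 19 listed STAT5 targets went both ways, with 4 higher, 2 lower and 13 that did not pass (median 0.28, beside -0.0008 over all genes). The list sets no expected direction for each gene, so neither the counts nor the median measure STAT5 output. Igfals, the acid-labile subunit that carries IGF1 in blood, had 252, 247, 213 and 180 in KO libraries 1 to 4, against 632, 763, 639 and 670 in WT libraries 1 to 4 (-1.60 ± 0.13, adjusted p = 0.000126). All KO libraries lay below all WT libraries. Igf1 itself, a growth factor gene, had 353, 93, 171 and 215 in KO libraries 1 to 4, against 14, 43, 48 and 92 in WT libraries 1 to 4 (2.17 ± 0.57, adjusted p = 0.0262). The Igf1 call ended without KO library 1, 3 or 4 or WT library 2, at up to 0.0718. Stellate cell and fibroblast markers stood higher in KO as well, with sums of 15880 to 27054 in KO and 9042 to 14636 in WT; 1 of 9, Lum, rose, and 7 of 9 with the replicate block. The part of these cells in the Igf1 difference was not tested.

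The kinase gene Pim2 averaged 1238 ± 159 in KO and 801.5 ± 45.7 in WT (0.62 ± 0.10, adjusted p = 0.00343). Cdkn1a, the cell cycle inhibitor p21, averaged 1874 ± 468 in KO and 580.8 ± 415 in WT (1.99 ± 0.51, adjusted p = 0.0236), and its call ended without KO library 1, 3 or 4 or WT library 2, at up to 0.0649. The cyclin gene Ccnd1 rose by 0.30 and the kinase gene Akt1 fell by 0.41 on the log2 scale (adjusted p = 0.0217 and 0.0237). The Ccnd1 call ended without KO library 2 or 4 or WT library 3, at up to 0.0615, and the Akt1 call with rescaled totals and without KO library 3 or 4 or WT library 2, at up to 0.0676. The count of targets called depended on 2 libraries: 2 passed without KO library 4 and 3 without WT library 2. With the replicate block 8 rose and 4 fell.

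Of the genes reported from islets of pregnant mice, 5 of 16 rose, 2 fell and 9 did not pass (median -0.17). Tnfrsf11b, which encodes osteoprotegerin, averaged 327.5 ± 82.6 in KO and 115 ± 13.98 in WT (1.48 ± 0.18, adjusted p = 0.000865). Hgf, hepatocyte growth factor, averaged 89.5 ± 9.40 in KO and 39.3 ± 10.2 in WT (1.199 ± 0.24, adjusted p = 0.00779). Both are higher in KO beside the stellate cell and fibroblast marker sums given above (no overlap between groups), whose part was not tested. Neb, which encodes the muscle protein nebulin, rose by 1.29 ± 0.30 and Gbp8, a guanylate-binding protein gene, by 0.99 ± 0.24 (adjusted p = 0.0171 and 0.0203). The Gbp8 call ended without KO library 1, 3 or 4, at up to 0.0584. Wipi1, an autophagy gene, rose as well (0.58 ± 0.08, adjusted p = 0.00205), and Ivd, which encodes a leucine breakdown enzyme, fell (-0.81 ± 0.13, adjusted p = 0.00280).

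For Csn3 the natural companions are other milk genes, but 11 of the 14 listed, the other caseins among them, are not analysed here. Of the 3 measured, Muc1, a mucin gene that is also on the ductal marker list, rose and the others did not pass (median 0.29). Muc1 had 1008, 316, 229 and 143 in KO libraries 1 to 4, against 54, 69, 121 and 111 in WT libraries 1 to 4 (1.91 ± 0.55, adjusted p = 0.0369). Every KO library lay above every WT library, but the KO values spread widely, and the call ended with the replicate block (adjusted p = 0.0522) and without KO library 2 or 3 or WT library 1 or 2, at up to 0.0900. Ductal markers rose for 2 of 7, with sums of 11963 to 28709 in KO and 6111 to 7192 in WT. Acinar markers rose for 0 of 12, with sums of 162721 to 495055 in KO and 22897 to 325472 in WT. The median difference between KO and WT was 1.46 for the ductal list and 1.61 for the acinar list. With the replicate block 3 markers of each list rose. The part of these cells in the Csn3 difference was not tested.

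Around Tph2 and Ddc, the genes that make the cofactor of tryptophan hydroxylase or handle its product gave 2 rises and 3 falls among 16 measured of 37 listed (median -0.17), and with the replicate block 4 of each. Gch1 and Qdpr, which make and recycle tetrahydrobiopterin, fell. Gch1 averaged 3137 ± 378 in KO and 4804 ± 336 in WT (-0.62 ± 0.10, adjusted p = 0.00290), and Qdpr 1040 ± 119 in KO and 1782 ± 326 in WT (-0.77 ± 0.14, adjusted p = 0.00646). Of the monoamine oxidases, which break serotonin down, Maob fell and Maoa rose. Maob had 3129, 3704, 3819 and 4228 in KO libraries 1 to 4, against 7637, 7120, 6446 and 6965 in WT libraries 1 to 4 (-0.93 ± 0.10, adjusted p = 0.000519). Maoa averaged 491.5 ± 36.9 in KO and 374.3 ± 27.4 in WT (0.39 ± 0.10, adjusted p = 0.0217), a call that ended without KO library 1, 3 or 4 or WT library 2, at up to 0.0638. Slc18a2, a vesicular monoamine transporter gene, averaged 180.8 ± 7.93 in KO and 101.3 ± 21.6 in WT and rose (0.85 ± 0.17, adjusted p = 0.00820). Slc18a1, the other such gene listed, averaged 309.5 ± 45.3 in KO and 353 ± 72.1 in WT. It did not pass (-0.18 ± 0.16, adjusted p = 0.468 by limma-trend).

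**Figure D4:**
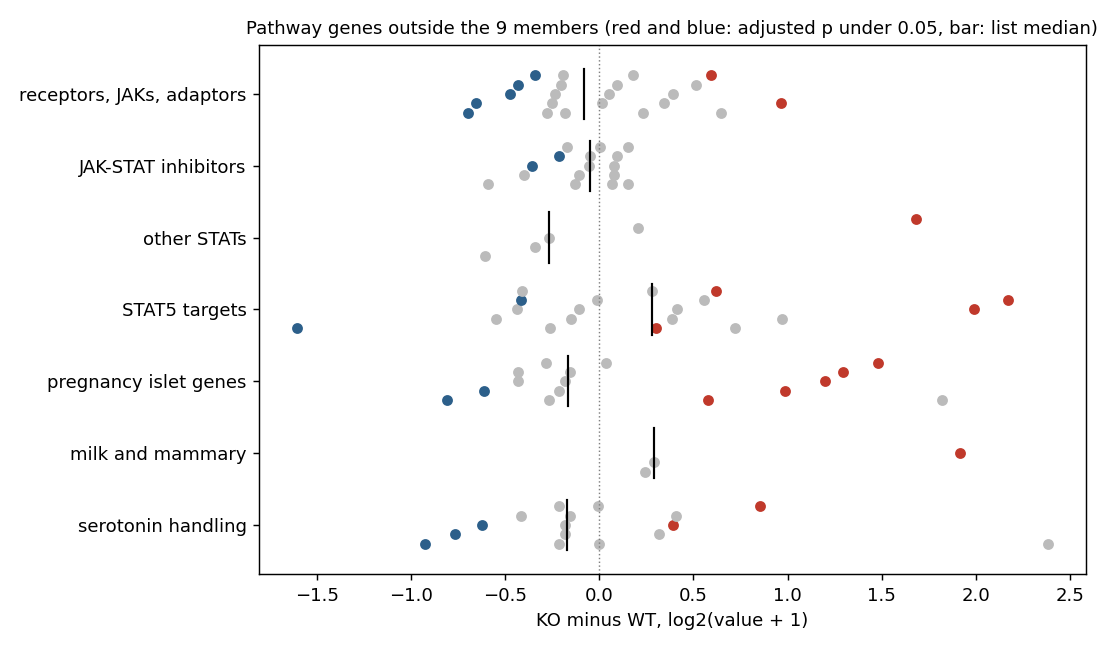
Difference KO minus WT on log2(value + 1) (x axis) for the 97 measured genes of 7 pathway lists (rows), with genes of adjusted p under 0.05 in red (higher in KO) or blue (lower in KO), others in grey, and a bar at each list's median. The coloured points fall on both sides of 0 in 4 of the lists, and 68 of the 97 genes are grey.

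By the measure of Pearson's r of log2(value + 1) over the 8 libraries, among 13079 genes with a mean of at least 50, the genes most like Prlr were Syt14 (r = 0.990), 1110002E22Rik (0.989) and Dpp4 (0.986). Those most like Csn3 were Stk39 (r = 0.994), Arhgap29 (0.992) and Tmem27 (0.992). The libraries share their label and set, and these genes were picked as the highest r of all compared. Their separation between KO and WT therefore follows from the choice, and the values are given only as a description. Syt14, a synaptotagmin gene, had 938 to 1065 in KO and 1230 to 1739 in WT, and Dpp4, which encodes a peptidase that cuts incretin hormones, 1996 to 2297 in KO and 2456 to 3302 in WT. Stk39, a kinase gene, had 1357 to 1488 in KO and 907 to 1094 in WT.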

How the data were processed

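Islets of 8 mice gave 8 libraries, 4 labelled KO and 4 labelled WT, taken as separate animals on the strength of the design text. Per the labels' protocols, islets were freed with collagenase and protease, separated by density and then hand-picked. The submitters' processing notes name RSEM 1.2.31, STAR 2.5.3a, edgeR 3.16.15 and bcl2fastq 2.20, and the build GRCm38.p5; how reads were stranded is not given in the sources used. The per-library columns the authors deposited hold normalized counts rounded to whole numbers, treated as a score and not as raw counts, because median-of-ratios factors were 0.994 to 1.01. The authors deposited in the same table a log2 fold change, log2 CPM, likelihood ratio score, p-value and adjusted p-value per gene.

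No count test was run, because the spacing of low values gave no clear read size in most libraries (best correlation 0.345 to 0.871), so depth is unknown and precision rests on the spread between libraries. The 14121 genes that reached a value of 1 in 4 or more libraries were fitted as log2(value + 1) with limma-trend (limma 3.58.1, R 4.3.3), with Benjamini-Hochberg adjustment over all of them and a threshold of 0.05. This scale understates differences of low genes. Deviations from the group means correlated between KO and WT libraries of the same number, with r of 0.327, 0.583, 0.664 and 0.381. These r are taken over 13081 genes, and genes do not stand in for independent replicates. Every r passed 0.1, the cut-off used for treating libraries as paired. Only same-numbered libraries were compared, and libraries 3 and 4 stood apart from libraries 1 and 2 in both groups. The r therefore cannot tell pairing by number from that split. The reported values come from the fit without that pairing, and a fit with the replicate number as a block was an alternative. Exon lengths, gene positions and coding sequences are from GENCODE M21 and promoters from RefSeq, both on GRCm38, whose chromosomes match those of GRCm38.p5.

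The genes, the pathway and marker lists and the tests were chosen with earlier results of these data known. Genes were named by rule: the listed genes, Ern1, up to 4 called genes with the largest difference per pathway list (RIKEN, predicted and pseudogene models left out; a list's 2 most abundant genes if none was called), and the 3 genes most like Prlr and Csn3. Jak1, Tyk2, Ptpn11, Jak2, Ghr, Ccnd1, Akt1, Ivd, Wipi1, Maoa, Slc18a1 and all genes named for the library sets were chosen after their values were seen. The result of 1 listed gene is not reported here. Alternatives were other pseudocounts (0.1 and 5), no filter or a mean of at least 50, rescaled totals, a set term, a replicate block, each library left out, and the authors' own values.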

Additional observations from a re-analysis of the deposited data

Results flagged for a closer look

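Among 126 groups of 4 libraries examined, 3 held a library far from the others by Dixon's criterion, which chance gives in about 1 group in 20. KO library 3 had a Stat5a value of 500, against 406 to 418 in the other KO libraries and 608 to 783 in WT. WT library 3 had a Shc1 value of 7500, against 6539 to 6663 in the other WT libraries. KO library 2 had a Tnfrsf11b value of 451, against 277 to 293 in the other KO libraries. The sets of libraries were drawn from the values, not from a label. For Irs2, an insulin receptor substrate gene of the adaptor list, the difference between KO and WT differed between the library sets, with an interaction of -2.011 (adjusted p = 0.00285 by limma-trend). Irs2 was higher in KO within libraries 1 and 2 (1838 and 1604 in KO, against 668 and 676 in WT) and lower within libraries 3 and 4 (5735 and 4961 in KO, against 8583 and 8266 in WT).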

How the results depend on the processing

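The differences between KO and WT of the 8 measured genes kept their direction in all 126 alternatives run, and 1 moved by more than the spread (Csn3, 3.43 with a pseudocount of 5). With the library set as a term, 2400 genes rose in KO and 2102 fell; with 1 library left out, 1121 to 1684 rose and 863 to 1599 fell. Calls among JAK-STAT inhibitors numbered 1 with the replicate block, 0 with rescaled totals, 1 in the authors' values and 0 to 1 with a library left out. Other STAT genes numbered 2 with the set term, 2 with the block, 3 in the authors' values and 1 to 2 with a library left out. STAT5 targets numbered 12 under each of those 3 settings and 2 to 8 with a library left out, milk genes 0 with the block and 0 to 1, and serotonin genes 9, 8 and 8. Beyond Btrc and Muc1, the block ended no call among the named genes. Genes lower in libraries 3 and 4 numbered 1324 with rescaled totals and 433 to 776 with a library left out. They numbered 473 without KO library 3, 433 without WT library 2 and 514 without WT library 3. Of the 8 genes, 3 were past the threshold between the sets, in either direction, with rescaled totals and 1 to 2 with a library left out. Some differences changed sign: between sets, Csn3 lay at -0.20 to 0.60 and Ddc at -0.081 to 0.023 with a library left out; in the interaction, Csn3 was 0.068 and 0.00535 with pseudocounts of 0.1 and 5, and Tph2 0.00047 and 0.0049 with a pseudocount of 5 and with rescaled totals. The cause was not tested. Of 576 alternatives for named genes 65 lost the call, none with a change of sign. A replicate block could not be fitted for the set contrast, which it contains.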
